A study of Mus musculus with 51 samples.

Results

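The 10 genes described here were chosen by their P28 fold changes: their messenger RNA stood higher or lower in gonads of Dmrt1 R111G/+ mice, and did not pass the same test in Dmrt1 -/- gonads, both set against Dmrt1 +/- testes. They are 10 of the 55401 genes of the count table, and each was found there under 1 identifier. Cldn3, Scara3, Thrsp, Car7 and Epn3 stood higher in the R111G/+ gonads. Pln, Tspan6, Csrnp3, Sncaip and Cd109 stood lower. The P28 values of these genes against +/- testes are the values that chose them, so they are given as a description with no test, and only the P3 and P7 libraries carry tests of the genes.

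DMRT1 is a DNA-binding protein that keeps Sertoli cells, the somatic cells that nurse germ cells in the testis, from turning into granulosa-like cells of the ovary. The R111G change replaces an arginine of the DNA-binding domain with a glycine. Male germ cells develop in an order, from spermatogonia through meiotic spermatocytes to haploid spermatids, and the postmeiotic cells make a large part of the RNA of an adult testis.

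Messenger RNA was sequenced from 30 libraries, 3 in each of 10 groups, from mice of mixed 129Sv and C57Bl/6J background. XY gonads at P28 (postnatal day 28) had the Dmrt1 genotypes +/+, +/-, -/- and R111G/+, and those at P3 had +/-, -/-, R111G/- and R111G/+. At P7, isolated Sertoli cells were Dmrt1 f/f with CAG-Stopflox-tdTomato and Dhh-Cre (deleted) or Dmrt1 f/+ with the same 2 transgenes (control). The R111G line descends from 1 founder animal, the -/- and R111G/- mice carry a null allele in every cell, and the P7 deletion is limited to cells in which the Dhh promoter drives Cre, which in the testis are Sertoli cells. The P7 control cells are labelled +/+ in their titles but carry 1 floxed allele, and both P7 groups express Cre. The paper describes these control cells as heterozygous for Dmrt1, so they keep 1 working copy where Cre has acted. The P7 cells came from pooled mice after germ cells had been depleted on beads, and no P28 or P3 label states whether a library is 1 animal, so the p-values measure the spread between libraries.

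The libraries held 5043838 to 12792811 counts. Dmrt1 itself was counted at 38.3 ± 4.68 CPM (counts scaled to 1000000 per library with TMM factors within an age; SD, n = 3) in P28 +/+ gonads, 41.5 ± 15.6 in +/-, 0.331 ± 0.148 in -/- and 60.8 ± 13.9 in R111G/+. In P7 Sertoli cells it was at 207 ± 54.3 in the control and 28.4 ± 8.58 in the deleted cells, and at P3 it was at 72.0 ± 15.3 in +/-, 2.96 ± 0.664 in -/-, 67.0 ± 11.9 in R111G/- and 134 ± 21.3 in R111G/+. Among the P28 libraries, +/- replicate 3 stood apart from its group on the first principal component, at -85.6 against -163 and -152, and R111G/+ replicate 1 at 95.8 against 28.2 and 14.6. Between P28 R111G/+ and +/-, 34.8% of 20952 genes were called (edgeR's quasi-likelihood test, Benjamini-Hochberg adjusted p below 0.05 and more than 2-fold), 1407 higher and 5891 lower. Higher genes were 19.3% of these calls under TMM, 35.6% with library totals alone and 0.978% with somatic-marker factors, which were taken from genes of macrophages, stroma, endothelium and myoid cells. The median log2 fold change of all genes was -0.17, 0.11 and -0.98 under these scalings.

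For 5 of the genes, whose starts nearly coincide in RefSeq and GENCODE, the 250 bases before the RefSeq start are printed (GRCm38.p6, 5′ to 3′ on the strand of the gene), so that promoters of 2 genes that stood higher can be read beside those of 3 that stood lower. Capitals mark a GC box on either strand and a TATA box on the strand of the gene. These windows are chr5:134985964-134986213 for Cldn3 (plus strand), chr8:104534450-104534699 for Car7 (plus strand), chr2:65845517-65845766 for Csrnp3 (plus strand), chr10:53337436-53337685 for Pln (plus strand) and chrX:133898430-133898679 for Tspan6 (minus strand).
Cldn3: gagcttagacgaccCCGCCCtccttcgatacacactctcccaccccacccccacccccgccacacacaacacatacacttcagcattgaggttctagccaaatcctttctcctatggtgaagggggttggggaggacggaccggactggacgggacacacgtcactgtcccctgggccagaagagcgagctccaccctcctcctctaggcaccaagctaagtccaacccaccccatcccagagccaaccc
Car7: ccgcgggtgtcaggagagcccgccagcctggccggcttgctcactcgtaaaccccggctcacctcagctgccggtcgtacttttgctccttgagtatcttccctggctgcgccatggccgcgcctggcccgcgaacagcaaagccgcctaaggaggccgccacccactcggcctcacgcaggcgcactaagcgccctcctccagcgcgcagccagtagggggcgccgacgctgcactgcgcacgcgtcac
Csrnp3: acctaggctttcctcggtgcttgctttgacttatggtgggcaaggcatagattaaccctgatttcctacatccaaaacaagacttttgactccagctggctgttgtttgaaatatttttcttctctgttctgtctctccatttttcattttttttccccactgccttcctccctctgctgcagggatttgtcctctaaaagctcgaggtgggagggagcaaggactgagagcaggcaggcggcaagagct
Pln: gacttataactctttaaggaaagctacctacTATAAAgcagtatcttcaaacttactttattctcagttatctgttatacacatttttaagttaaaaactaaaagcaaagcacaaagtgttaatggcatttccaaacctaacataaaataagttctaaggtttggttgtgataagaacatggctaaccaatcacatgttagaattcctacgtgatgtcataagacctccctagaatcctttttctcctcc
Tspan6: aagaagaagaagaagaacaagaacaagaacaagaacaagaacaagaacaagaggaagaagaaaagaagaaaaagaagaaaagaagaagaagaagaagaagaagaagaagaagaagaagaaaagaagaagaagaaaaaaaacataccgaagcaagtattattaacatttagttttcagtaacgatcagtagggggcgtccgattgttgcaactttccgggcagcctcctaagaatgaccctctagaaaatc
The share of G and C was 60.8% for Cldn3, 69.6% for Car7, 47.6% for Csrnp3, 32.8% for Pln and 36.0% for Tspan6, where the median of all 32536 different windows was 52.4%. The reference held 9 windows for 6 of the genes, some with several starts. The letters ACAATGT, the core of the site that DMRT1 binds, or their reverse complement were in 0 of the 9 windows and in 2.54% of all windows. The GC box, searched as GGGCGG on both strands, was in 3 of the 9 (Cldn3 and 2 further starts of Car7) and in 33.0% of all windows. The TATA box, searched as TATAAA on the strand of the gene, was in that of Pln, in the part far from the start, and in 7.55% of all windows. These matches are letters in a short window and no measure of binding.

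The P28 gonads were checked for the cells they hold. The 12 spermatid markers summed to 4599.5 to 20764 CPM in +/- testes, 611 to 861 in R111G/+ gonads and 27.7 to 33.6 in -/- gonads, and all 12 were called lower in R111G/+. The lowest +/- sum was that of replicate 3. The 12 granulosa markers summed to 284 to 581 CPM in +/-, 508 to 864 in R111G/+ and 4467 to 4628 in -/-. Of these, 3 were called higher and 1 lower in R111G/+, and 11 higher in -/-. The 17 Sertoli markers, which include Dmrt1 itself, summed to 1664 to 2486, 2324 to 2829.7 and 2099 to 2388 CPM. Here 1 was called higher and 1 lower in R111G/+, and 2 higher and 5 lower in -/-. All 6 macrophage markers were called higher in R111G/+, with sums of 442 to 1061 CPM against 176 to 280.2 in +/- and 454 to 613 in -/-, where 2 were called higher. Leydig markers summed to 1443 to 2515 CPM in +/-, 2482 to 5181 in R111G/+ and 9727 to 11526 in -/-, with 3 of 7 called higher in both and 2 called lower in -/-. Stromal markers summed to 549 to 862, 1131 to 2112 and 2778 to 3462 CPM, with 3 of 6 called higher in R111G/+ and 5 of 6 in -/-. Endothelial markers summed to 42.7 to 52.8, 50.3 to 79.9 and 315 to 357 CPM, with all 6 called higher in -/-. Markers of the rete testis and ducts, another epithelium with tight junctions, summed to 34.8 to 38.0 CPM in +/- and 15.0 to 22.8 in R111G/+. Of the 6 tested, 2 were called lower in R111G/+, and 2 higher and 2 lower in -/-. In -/- gonads the rete testis and duct markers were at 45.1, 13.1 and 19.0 CPM. Epididymis markers were at 209, 0.693 and 12.7 CPM there, beside 0.338 to 4.72 in +/- and 0.0736 to 0.540 in R111G/+, so that -/- replicate 1 stood apart in both sums. Adipocyte markers summed to 27.6 to 67.2 CPM in +/-, 30.0 to 65.0 in R111G/+ and 84.8 to 110 in -/-. Of the 4 adipocyte markers tested, 1 was called higher and 2 lower in R111G/+, and likewise 1 and 2 in -/-. Skeletal muscle markers summed to 0.874 to 1.60, 1.00 to 1.26 and 0.891 to 1.74 CPM. The 10 spermatocyte markers summed to 1429 to 2077 CPM in +/-, 727 to 910 in R111G/+ and 3.91 to 6.83 in -/-. Of these, 4 were called lower in R111G/+ and all 10 in -/-. Markers of undifferentiated spermatogonia summed to 151 to 174, 165 to 200 and 55.1 to 97.7 CPM. Of the 7 tested, 0 were called in R111G/+ and 5 were called lower in -/-. The R111G/+ values below move with the spermatid, spermatocyte, macrophage, Leydig and stromal sums, and with that of the rete testis and ducts. The -/- values move with these except the last. They also move with the granulosa, endothelial, adipocyte and undifferentiated spermatogonia sums. In bulk gonads fewer cells of a type and less RNA per cell cannot be told apart, and the part of the cell mixture in the 10 genes was not tested.

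All 10 genes passed the filter on low counts at P28, and for all 10 the 3 R111G/+ libraries lay outside the range of the 3 +/- libraries, as they did for 57.4% of all genes tested. They also lay outside the range of the -/- and of the +/+ libraries for all 10 genes, as did 61% and 74.4% of all genes. Between -/- and +/- 3 of the 10 did not overlap, Car7, Pln and Csrnp3, as did 77.9% of all genes. By the rule, all 10 are called in R111G/+ against +/- (34.8% of all genes, 6.72% higher and 28.1% lower) and none in -/- against +/- (58.5% of all genes called). The same rule is met by 563 genes, 2.69% of those tested, 345 of them higher and 218 lower in R111G/+ (1.65% and 1.04%). Among those the 5 higher genes ranked between 6 and 20 by fold change and the 5 lower genes between 19 and 29. Near the limit of 2-fold in -/- gonads, Man1c1 was still inside at a log2 fold change of 1.00 and Morf4l1, which fell by 1.00, was already outside.

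**Figure D1:**
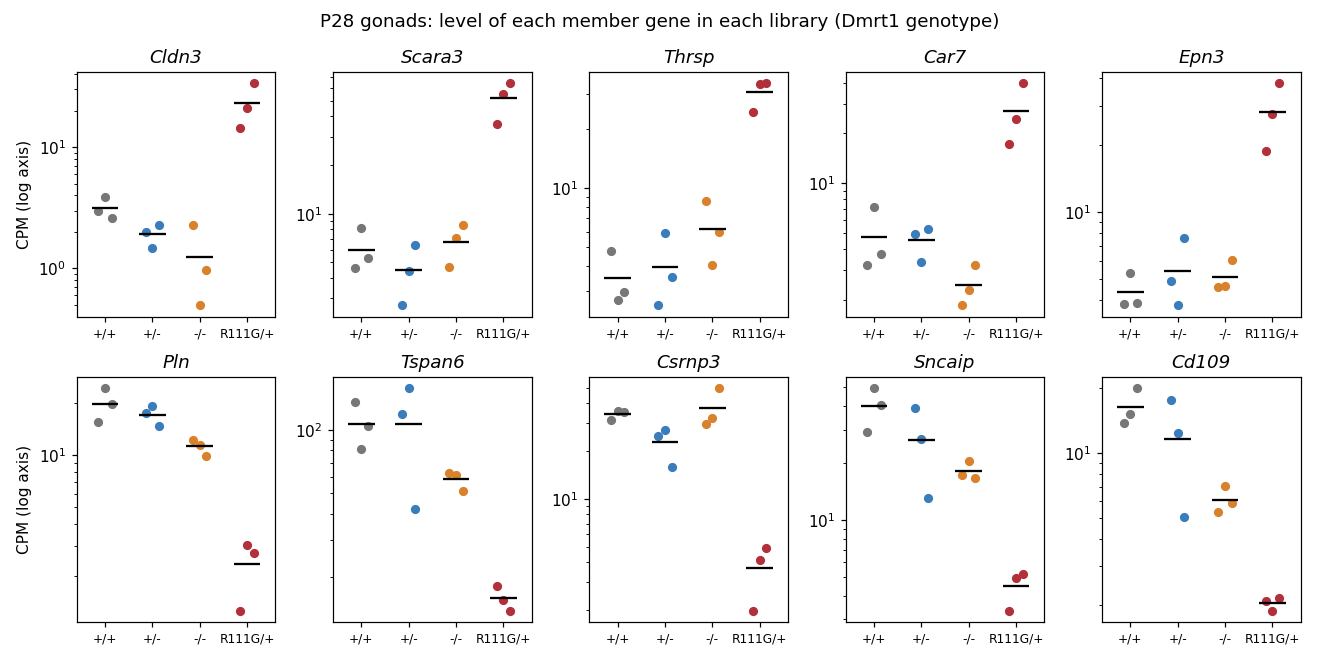
Level of each of the 10 genes in the 12 P28 libraries, in CPM on log axes, with 1 point for each library and a line at the mean of each Dmrt1 genotype. The 3 R111G/+ libraries lie above all others for the 5 genes in the upper row and below all others for the 5 in the lower row.

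Cldn3 encodes claudin 3, a transmembrane protein of tight junctions that is part of the blood-testis barrier between Sertoli cells (chr5:134986214-134987472, plus strand). Its levels were 2.01, 1.47 and 2.28 CPM in the +/- libraries, 14.3, 21.0 and 33.9 in R111G/+ and 2.28, 0.495 and 0.968 in -/-. The R111G/+ libraries lay far above the rest but differed among themselves by more than 2-fold, with replicate 1 the lowest. The log2 fold change against +/- was 3.57 ± 0.44 (SE), or 11.9-fold, in R111G/+ and -0.66 ± 0.49 in -/-. The highest -/- library was replicate 1, which also had the highest sum of epididymis markers, and without it the -/- value moved to -1.36, past the 2-fold limit that the rule sets, while the other 9 genes stayed within it. Against +/+ testes, at 3.00, 3.87 and 2.58 CPM, Cldn3 was at -1.36 on the log2 scale in -/- gonads.

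Scara3 encodes a membrane protein of the class A scavenger receptor family that is induced by oxidative stress (chr14:65919394-65953935, minus strand). It was at 2.71, 4.42 and 6.42 CPM in +/-, 35.9, 55.0 and 64.3 in R111G/+ and 4.67, 7.03 and 8.47 in -/-. The -/- range overlapped those of +/- and +/+, and no R111G/+ library came near them. Against +/-, Scara3 had a log2 fold change of 3.51 ± 0.36 in R111G/+, or 11.4-fold, and 0.58 ± 0.35 in -/-.

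Thrsp encodes a small nuclear protein, also called Spot 14, that responds to thyroid hormone and carbohydrate and promotes fatty acid synthesis (chr7:97412938-97417730, minus strand). It was at 2.54, 5.89 and 3.55 CPM in +/-, 24.2, 33.9 and 34.1 in R111G/+ and 8.58, 4.06 and 5.97 in -/-. The 3 R111G/+ libraries were closer together for Thrsp, relative to their mean, than for the other 4 genes that stood higher, at 30.7 ± 5.64 CPM. On the log2 scale the fold change was 2.95 ± 0.36 in R111G/+ and 0.64 ± 0.36 in -/-, the largest of the 10 in that direction but for that of Csrnp3. Without +/- replicate 2 the -/- value of Thrsp was 1.01.

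Car7 encodes a cytosolic carbonic anhydrase, an enzyme that turns carbon dioxide and water into bicarbonate (chr8:104534689-104550343, plus strand). It was at 4.98, 3.37 and 5.32 CPM in +/-, 17.2, 24.2 and 39.9 in R111G/+ and 1.85, 2.28 and 3.23 in -/-. Every -/- library lay below every +/- library, while every R111G/+ library lay above. Car7 had a log2 fold change of 2.56 ± 0.38 in R111G/+ and -0.88 ± 0.40 in -/-, which passed 2-fold without +/- replicate 2 or -/- replicate 3, at -1.06 and -1.22. The start of Car7 lies 0.1 kb from that of Nae1, which is on the other strand and had a log2 fold change of 0.78 ± 0.27 in R111G/+ and passed 2-fold without R111G/+ replicate 1, at 1.15.

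Epn3 encodes an epsin, an adaptor that bends membranes and gathers cargo for endocytosis (chr11:94489599-94499974, minus strand). It was at 4.90, 3.79 and 7.60 CPM in +/-, 18.8, 27.6 and 38.0 in R111G/+ and 4.56, 4.65 and 6.05 in -/-. Of the 10 genes Epn3 lay nearest to the +/- level in -/- gonads, with a log2 fold change of -0.09 ± 0.32, and it was at 2.37 ± 0.31 in R111G/+. Its annotated neighbours on both sides, Spata20 and Mycbpap, were lower in R111G/+ at -3.62 ± 0.42 and -2.58 ± 0.32 on the log2 scale (edgeR adjusted p = 3.86e-05 and 5.79e-05). These neighbours were lower in -/- too, at -8.85 ± 0.56 and -5.41 ± 0.39.

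**Figure D2:**
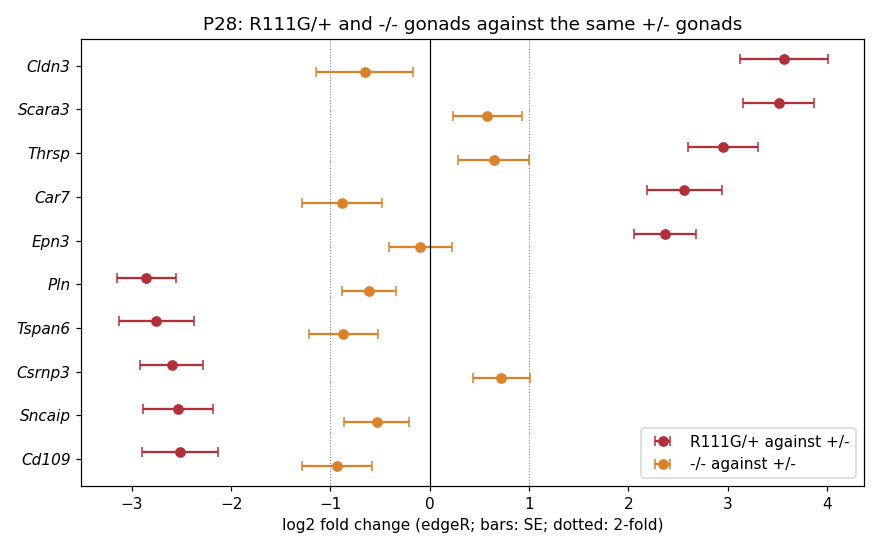
Log2 fold change of each gene at P28 in R111G/+ gonads (red) and in -/- gonads (orange), both against the same 3 +/- libraries, with bars of 1 standard error and dotted lines at 2-fold. The red points run from 3.57 for Cldn3 to -2.85 for Pln and lie beyond 2-fold, and the orange points lie within it by the rule that chose the genes.

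Pln encodes phospholamban, a small membrane protein that holds back the calcium pump SERCA in heart muscle (chr10:53337667-53345987, plus strand). It was at 17.5, 19.2 and 14.8 CPM in +/-, 1.26, 3.01 and 2.72 in R111G/+ and 12.3, 11.5 and 9.92 in -/-. The 4 P28 genotypes fell in the order +/+, +/-, -/- and R111G/+, and +/+ and +/- overlapped while no other neighbours in this order did. The log2 fold change was -2.85 ± 0.30 in R111G/+, or 7.23-fold lower, and -0.61 ± 0.27 in -/-. Pln lies within Cep85l, which is on the other strand and was also lower in R111G/+, at -2.02 ± 0.30 (edgeR adjusted p = 0.000158). Cep85l was lower in -/- too, at -2.46 ± 0.30 (edgeR adjusted p = 7.71e-06). The authors counted reads by strand.

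Tspan6 encodes a tetraspanin, a membrane protein with 4 spans that organises other proteins in the membrane (chrX:133891068-133898429, minus strand). It was at 119, 158 and 41.9 CPM in +/-, 18.0, 15.5 and 13.8 in R111G/+ and 62.4, 61.2 and 51.1 in -/-. The lowest +/- library was replicate 3, which lay below all 3 -/- libraries, and the R111G/+ libraries lay lower still. Tspan6 had a log2 fold change of -2.75 ± 0.38 in R111G/+ and -0.87 ± 0.35 in -/-. Without +/- replicate 3 the value in -/- moved to -1.23, past 2-fold.

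Csrnp3 encodes a nuclear protein rich in cysteine and serine that activates transcription (chr2:65845767-66031546, plus strand). It was at 24.8, 27.2 and 16.0 CPM in +/-, 1.98, 4.15 and 4.93 in R111G/+ and 29.8, 32.4 and 49.7 in -/-. Csrnp3 was the only one of the 5 lower genes whose level in -/- gonads lay above that in +/- testes, with no overlap, although it overlapped that of +/+ testes at 31.4, 35.6 and 35.1 CPM. Its log2 fold change was -2.60 ± 0.32 in R111G/+ and 0.72 ± 0.29 in -/-.

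Sncaip encodes synphilin-1, a cytoplasmic protein that binds alpha-synuclein (chr18:52767709-52915935, plus strand). It was at 39.0, 26.8 and 13.0 CPM in +/-, 3.33, 4.96 and 5.23 in R111G/+ and 17.3, 20.5 and 16.7 in -/-. The +/- libraries spread widely, with replicate 3 lowest, so that -/- overlapped them. Sncaip had a log2 fold change of -2.53 ± 0.35 in R111G/+ and -0.53 ± 0.33 in -/-, and against +/+ testes, at 29.1, 49.5 and 40.6 CPM, it was -1.13 in -/-.

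Cd109 encodes a protein tethered to the cell surface that binds transforming growth factor beta and its receptors (chr9:78615546-78716253, plus strand). It was at 17.6, 12.3 and 5.07 CPM in +/-, 2.07, 1.88 and 2.14 in R111G/+ and 5.32, 7.03 and 5.89 in -/-. The R111G/+ libraries stood close together at 23, 28 and 29 raw counts, and +/- replicate 3 lay just below the -/- range, far below the other +/- libraries. For Cd109 the log2 fold change was -2.52 ± 0.38 in R111G/+ and -0.93 ± 0.36 in -/-, the -/- value of the 10 genes that lay nearest to the 2-fold limit. It passed this limit without +/- replicate 3 or -/- replicate 2, at -1.28 and -1.05.

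That the 10 genes count as changed in R111G/+ alone depended on the control group and on the scaling. Against +/+ testes, Cldn3, Sncaip and Cd109 were called lower in -/- gonads (40.5% of all genes were), all 10 were called in R111G/+ (52.2% of all genes), and 7 of 10 met the rule. With this control 5 met it under DESeq2's size factors and by DESeq2's own test, where Car7 and Tspan6 were also called in -/-, 8 under library totals and 0 with the somatic-marker factors. Against +/-, with the somatic-marker factors, which moved the median log2 fold change of all genes in -/- gonads from -0.28 to -1.98, 9 of 10 were called in -/-, every one of them lower, and only Thrsp met the rule. With DESeq2's size factors 9 of 10 met it against +/-, with library totals 10, without the filter 8, and 8 also met it when +/- replicate 3 and R111G/+ replicate 1 were left out. In R111G/+ gonads all 10 kept their direction and stayed past 2-fold under each of these settings, with values for Cldn3 from 2.84 to 3.85 and for Cd109 from -3.38 to -2.19 over the 3 other scalings. The same R111G/+ libraries chose the genes for large changes, so these values and calls are a description and no independent check.

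**Figure D3:**
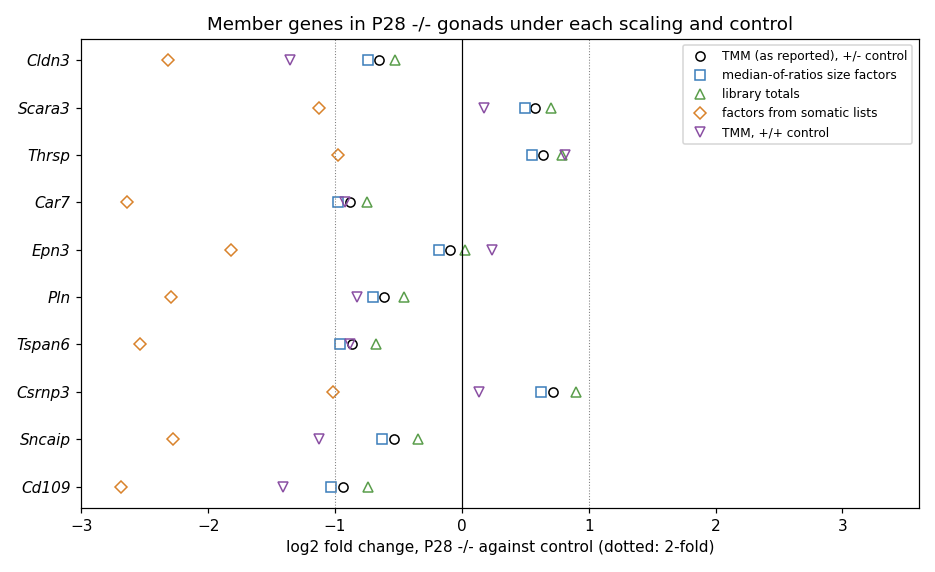
Log2 fold change of each gene in P28 -/- gonads under TMM scaling (black circles), 3 other scalings and with +/+ testes as control (purple triangles), with dotted lines at 2-fold. Somatic-marker factors (orange diamonds) put all 10 genes below 0, with 9 of them called lower, while under TMM Scara3, Thrsp and Csrnp3 lie above it.

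The P7 Sertoli cells had no part in the choice of the genes, and they ask what loss of Dmrt1 does in this cell type. Of the 10 genes, 5 passed the filter on low counts, and Scara3 fell and Thrsp rose in the deleted cells (4.56% of 14013 genes were called, 2.56% higher and 2% lower). Epn3, Tspan6 and Csrnp3 did not pass the test. Of the 17 Sertoli markers 5 were called lower, and 3 of 12 granulosa markers were called higher. The Sertoli list includes Dmrt1, the deleted gene. The 17 Sertoli markers summed to 6825 to 7997 CPM in control and 4266 to 5706 in deleted cells, the granulosa markers to 1508 to 2544 and 3162 to 3478, and markers of undifferentiated spermatogonia to 231 to 425 and 129 to 223. Markers of the rete testis and ducts summed to 39.9 to 51.7 and 75.0 to 91.1, with 2 of 6 called higher, and endothelial markers to 13.0 to 16.4 and 28.3 to 48.8. These sums move with the deletion, and their part in the results was not tested.

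Scara3 was at 46.3, 18.3 and 58.2 CPM in the control cells and 1.20, 1.57 and 3.70 in the deleted cells. The lowest control library, replicate 2, still lay well above the highest deleted one. This is a log2 fold change of -4.31 ± 0.55, or 19.9-fold lower (edgeR adjusted p = 0.00427), and leaving out any 1 library gave values from -4.90 to -3.98 with Scara3 still called. The mean of Scara3 was lowest of all 10 groups in Sertoli cells without Dmrt1, while the P28 R111G/+ gonads had its highest mean. With 1 scaling for all libraries these cells, at 1.20 to 3.54 CPM, overlapped P28 +/- testes at 2.93 to 6.76. This order sets isolated cells beside whole gonads.

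Thrsp was at 0.358, 0.533 and 0.576 CPM in control cells and 2.41, 2.95 and 2.06 in deleted cells, which are 3, 3 and 4 and 22, 15 and 10 raw counts. The groups did not overlap (as in 27.9% of all genes), and Thrsp had a log2 fold change of 2.31 ± 0.44, or 4.98-fold (edgeR adjusted p = 0.0201). The call rests on few counts. It was lost without any 1 of the 3 deleted libraries or without control replicate 1 or 3, at log2 fold changes of 2.11 to 2.43 and edgeR adjusted p-values of 0.0653 to 0.0992.

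Epn3 stood at 32.5, 36.1 and 40.6 CPM in control and 32.4, 23.8 and 46.3 in deleted Sertoli cells, the highest levels of this gene in the series together with P28 R111G/+ gonads, and its log2 fold change of -0.09 had a 95% interval from -0.65 to 0.47. For Tspan6 the value was 0.21, with an interval from -0.39 to 0.81. Csrnp3 was at 13.4, 11.4 and 14.3 CPM in control and 8.64, 7.87 and 8.43 in deleted cells. These Csrnp3 groups did not overlap either, and the log2 fold change of -0.64 did not pass the test (edgeR adjusted p = 0.171).

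At P3, 7 of the 10 genes passed the filter and Scara3 was the gene that moved. In -/- against +/- gonads Scara3 fell and none of the other 6 was called (0.511% of 15837 genes were called, 0.309% lower). In R111G/+ against +/- gonads 0 of 7 were called by edgeR's quasi-likelihood test (0.133% of all genes), 1 had an unadjusted p below 0.05, and DESeq2 called 0. In R111G/- against +/- gonads edgeR called 0 of 7 as well (0.196% of all genes), 1 had an unadjusted p below 0.05, and DESeq2 called 0. These comparisons share the +/- libraries. Sertoli markers summed to 3690.0 to 5458 CPM in P3 +/-, 4434 to 4571 in -/-, 4057 to 4890.2 in R111G/- and 4089 to 4646 in R111G/+. These ranges overlap, but of 16 tested Sertoli markers 5 were called lower in -/- than in +/-, and 4 were called higher in R111G/+ and 1 in R111G/- than in -/-. The Sertoli list includes Dmrt1, whose level the null allele lowers by design, so these counts are not independent of the genotype. Markers of the rete testis and ducts summed to 109 to 136 CPM in P3 -/- and 49.7 to 83.1 in +/-, with 2 of 6 called higher. These markers move with the results of Scara3 below, and their part was not tested.

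Scara3 at P3 was at 12.7, 16.4 and 14.1 CPM in +/-, 7.96, 6.58 and 6.74 in -/-, 13.6, 13.2 and 18.2 in R111G/- and 18.1, 21.0 and 17.4 in R111G/+. The -/- libraries lay below those of every other P3 genotype, and such separate ranges were seen for 13.2% of all genes against +/-, 23.1% against R111G/+ and 11.9% against R111G/-. The R111G/+ libraries also lay above +/- with no overlap, and 9.43% of all genes had separate ranges there. Against +/- gonads Scara3 was at -1.02 ± 0.18 on the log2 scale in -/- (edgeR adjusted p = 0.0148), 0.39 ± 0.17 in R111G/+ (adjusted p = 0.811) and 0.06 ± 0.17 in R111G/- (adjusted p = 0.965). The -/- value lies close to the 2-fold limit. The call was lost without +/- replicate 2 or 3, without -/- replicate 2 or 3, with only the libraries of these 2 groups in the fit and with the somatic-marker factors, at log2 fold changes of -1.04 to -0.92.

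Set directly against -/- gonads at P3, Scara3 was higher in R111G/+ by 1.41 ± 0.17 on the log2 scale (edgeR adjusted p = 0.000679, 0.903% of all genes called higher) and stayed called without any 1 library. In R111G/- it was higher by 1.08 ± 0.18 (adjusted p = 0.0241, 0.12% of all genes called higher). The R111G/- call was lost without any 1 of the 3 -/- libraries or R111G/- replicate 1 or 3, at log2 fold changes of 0.93 to 1.17. It was also lost with the replicate number as a block, with only the libraries of these groups in the fit and with the somatic-marker factors, at 1.07, 1.08 and 0.71 (edgeR adjusted p = 0.0759, 0.110 and 0.473). R111G/- gonads have no wild-type Dmrt1 allele, and they held Scara3 at 15.0 ± 2.76 CPM against 14.4 ± 1.86 with 1 wild-type allele, a log2 difference with a 95% interval from -0.31 to 0.42.

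The effect of losing Dmrt1 on Scara3 was larger in P7 Sertoli cells than in P3 gonads, by -3.28 ± 0.53 on the log2 scale (edgeR adjusted p = 0.00275, 1.8% of 16648 genes called, in 1 fit of both ages). Of the 8 genes tested for this difference, Scara3 was the 1 called. The P7 cells were isolated and the P3 gonads were whole, so age, cell mixture and the way the allele was deleted cannot be told apart.

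**Figure D4:**
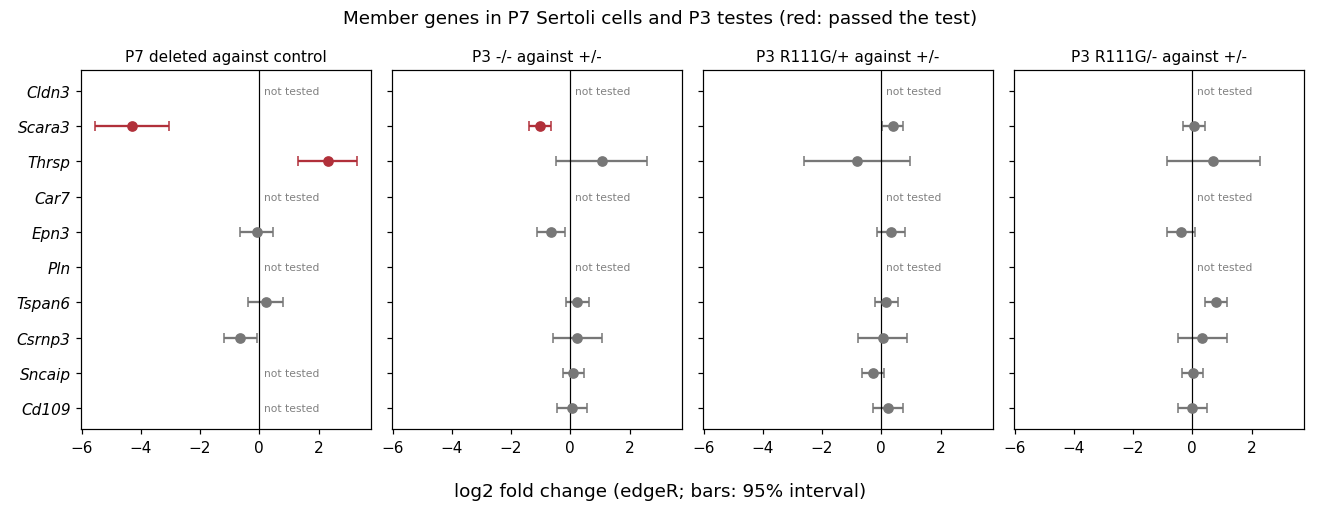
Log2 fold change of each gene in deleted P7 Sertoli cells and in P3 -/-, R111G/+ and R111G/- gonads, each against its control, with 95% intervals and red points for called genes. Scara3 is red and below 0 in the 2 panels on the left, at -4.31 and -1.02, and Thrsp is red and above 0 at P7, while most other points lie within 1 unit of 0.

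Epn3 at P3 was at 12.7, 9.30 and 14.2 CPM in +/-, 8.46, 5.52 and 9.13 in -/-, 10.3, 9.71 and 7.59 in R111G/- and 15.7, 13.4 and 16.2 in R111G/+. Its -/- libraries lay below all +/- libraries, and 13.2% of all genes had separate ranges there. The log2 fold change of -0.64 ± 0.22 did not pass the test (edgeR adjusted p = 0.332). Against -/- gonads Epn3 had a log2 fold change of 0.97 ± 0.22 in R111G/+ (adjusted p = 0.0305), short of 2-fold. It passed without -/- replicate 3 or R111G/+ replicate 2, at 1.11 and 1.05.

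Tspan6 stood at 92.2, 84.1 and 64.3 CPM in +/-, 103, 107 and 72.9 in -/-, 171, 112 and 137 in R111G/- and 86.4, 94.7 and 90.1 in R111G/+. The 3 R111G/- libraries lay above all 9 others (9.16% of all genes had separate ranges between R111G/- and +/-), and the log2 fold change of 0.80 ± 0.18 against +/- did not pass the test (edgeR adjusted p = 0.119). At P28 the R111G/+ gonads held Tspan6 at a lower level than any other group of the series.

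Sncaip and Cd109 were at similar levels in all 4 P3 genotypes. Sncaip ranged from 25.7 to 43.9 CPM over the 12 libraries and Cd109 from 4.93 to 8.34, and their log2 fold changes in -/- gonads, 0.10 and 0.06, had 95% intervals from -0.26 to 0.45 and from -0.44 to 0.56. In P7 Sertoli cells both were near 0, at 1, 4 and 2 and 3, 9 and 6 raw counts in the control libraries, and did not pass the filter. Csrnp3 was at 5.70 ± 0.559 CPM in P3 +/- gonads, with a log2 fold change in -/- of 0.23 and an interval from -0.60 to 1.06. Thrsp was counted 2 to 20 times in each P3 library, and its interval in -/- ran from -0.47 to 2.60, which does not exclude the rise measured at P7.

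Cldn3, Car7 and Pln were too low to test at P3 or P7. Cldn3 was at 0.967 ± 0.392 CPM in P7 control cells and 0.557 ± 0.505 in P3 +/- gonads, and Car7 at 0.645 ± 0.261 and 0.727 ± 0.357. Pln had 0 counts in all 12 P3 libraries. A count of 0 allows up to 3 counts, or 0.113 to 0.134 CPM over the 3 libraries of a P3 group, and this limit covers counting error only. In P28 +/- testes Pln had 558 counts over the 3 libraries, at least 121-fold higher than this limit in P3 +/- gonads when both are divided by library totals. The ages were not set against each other by a test.

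The levels were also ordered over all 10 groups, with 1 scaling for all 30 libraries. Thrsp, Car7 and Cldn3 had their highest mean in P28 R111G/+, at 32.3 ± 5.67, 28.5 ± 12.1 and 24.2 ± 10.3 CPM, with no overlap with the next group. Scara3 in P28 R111G/+, at 54.4 ± 14.8 CPM, overlapped P7 control cells at 39.6 ± 19.6, and Epn3 in P28 R111G/+, at 29.6 ± 9.90 CPM, overlapped both P7 groups at 35.3 ± 3.57 and 33.2 ± 10.7. For Scara3 the next groups in order were P3 R111G/+, R111G/- and +/-, and neighbours in this part of the order overlapped. Tspan6 and Csrnp3 had their lowest mean in P28 R111G/+, and Csrnp3 there overlapped P3 gonads. Pln, Sncaip and Cd109 were lower in P28 R111G/+ than in any other P28 group, but lower again in P7 Sertoli cells.

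**Figure D5:**
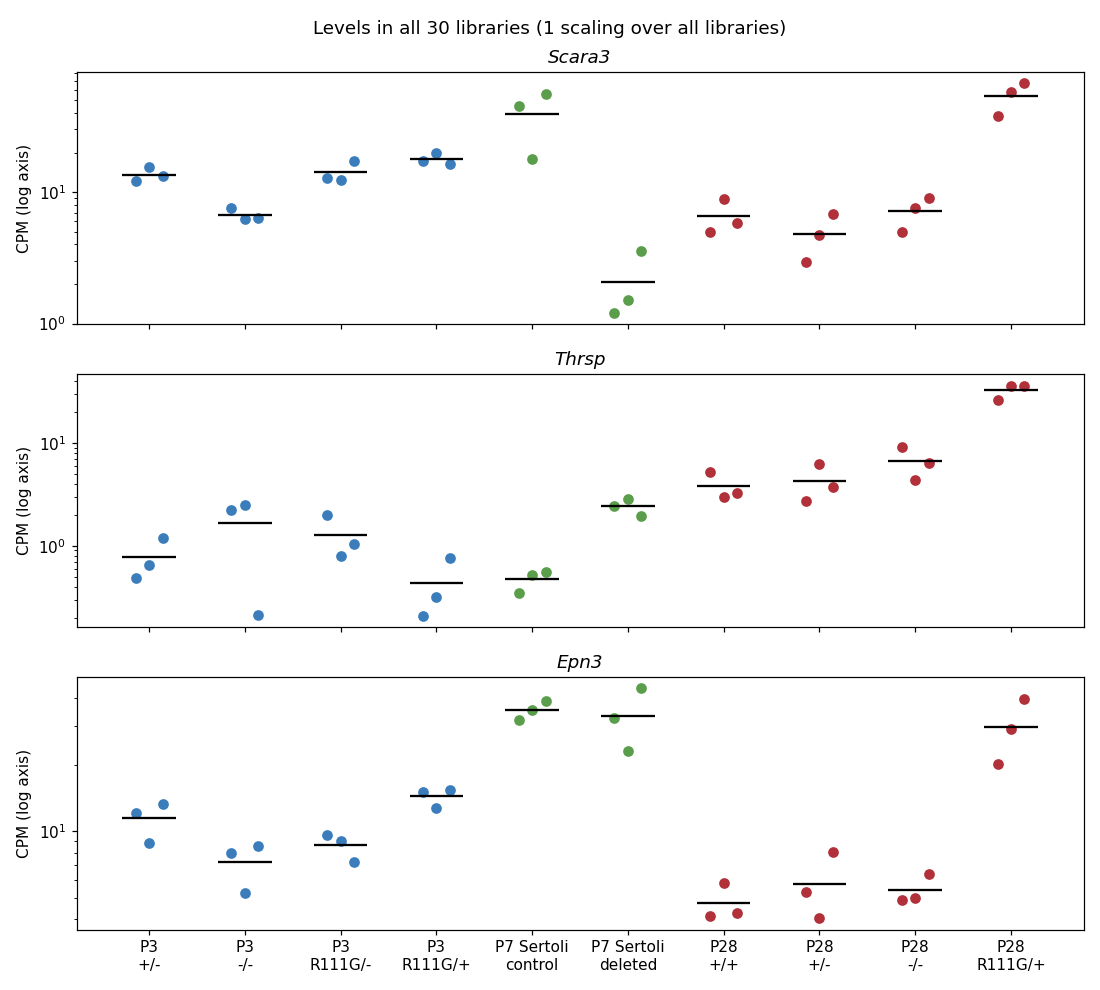
Levels of Scara3, Thrsp and Epn3 in all 30 libraries, in CPM on log axes with 1 scaling over all libraries, with points for libraries and lines for group means, P3 in blue, P7 Sertoli cells in green and P28 in red. Scara3 is high in P7 control cells and in P28 R111G/+ gonads and low in deleted P7 cells, and Epn3 is high in both P7 groups and in P28 R111G/+.

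The relatives and partners of the 10 genes were read from 10 lists with 131 genes, of which 108 were tested at P28. In R111G/+ against +/- 18 of these were called higher and 10 lower, beside 6.72% and 28.1% of all genes, and the median log2 fold change was 0.46 beside -0.17 over all genes. In -/- against +/- 39 were higher and 18 lower, beside 19.8% and 38.7% of all genes. The split depended on the scaling, with 38 higher and 7 lower in R111G/+ under library totals, and 1 higher and 19 lower with the somatic-marker factors. Under those factors the rises named below were lost except that of Car13, and Scara5, Cldn12 and Atp2a3 changed sign to -0.55, -0.27 and -0.30, while the falls kept their calls. Without +/- replicate 1, 9 were called higher and 9 lower.

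Up to 3 genes are named from each list, by the lowest adjusted p, and the further called genes were chosen after their values were seen. Among 18 tested claudins and tight junction partners of Cldn3, 1 was called higher and 1 lower in R111G/+, with a median of 0.31 (4 higher and 3 lower in -/-). Cldn7 rose (1.40 ± 0.51 on the log2 scale, SE, edgeR adjusted p = 0.0349), a call lost without +/- replicate 1 or 2 or R111G/+ replicate 3, at 1.12 to 1.45. Marveld3, a tight junction protein, fell (-3.30 ± 0.85, adjusted p = 0.00607), and F11r, the junctional adhesion molecule A, was at 0.97 ± 0.17 and Cldn12 at 0.53 ± 0.15, neither past 2-fold, although F11r passed it at 1.01 to 1.15 without +/- replicate 3 or R111G/+ replicate 1 or 2. Of 3 class A scavenger receptor genes tested beside Scara3, Colec12 rose (1.31 ± 0.32, adjusted p = 0.00403), while Scara5 and Msr1 were at 0.25 ± 0.16 and 0.10 ± 0.42.

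In the lipogenesis list of Thrsp 4 of 14 genes were called higher and 1 lower, with a median of 0.89. Insig1, which holds back cholesterol synthesis, rose (1.38 ± 0.25, edgeR adjusted p = 0.000545), Dgat2, which makes triglycerides, fell (-1.58 ± 0.20, adjusted p = 7.00e-05), and Scd2, a fatty acid desaturase, was at 0.98 ± 0.18, just short of 2-fold, which it passed at 1.01 to 1.07 without +/- replicate 3 or any R111G/+ library. The other 3 that rose were Scd1, another desaturase (1.61 ± 0.33), Elovl6, a fatty acid elongase (1.14 ± 0.25), and Mlxipl, the carbohydrate-responsive regulator ChREBP (1.08 ± 0.34). Elovl6 was lost at 0.95 without +/- replicate 1, and Mlxipl at 0.65 to 1.09 without +/- replicate 1 or 2 or R111G/+ replicate 3. In -/- gonads 9 of the 14 were called higher and 1 lower. Of 9 carbonic anhydrases beside Car7, 2 were higher and 2 lower in R111G/+ (3 higher and 2 lower in -/-). Car13 rose (2.09 ± 0.32, adjusted p = 0.000199) and Car11, which lacks the enzyme's activity, rose too (1.23 ± 0.33, adjusted p = 0.00727), whereas Car2 fell (-2.01 ± 0.43, adjusted p = 0.00198), as did Car15 (-1.85 ± 0.57, adjusted p = 0.0160), whose call was lost without +/- replicate 2 or R111G/+ replicate 1, at -1.69 and -1.30.

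For the endocytosis genes around Epn3, 0 of 12 were called higher and 1 lower by edgeR, and DESeq2 gave 0 and 1, and 6 were at an unadjusted p below 0.05. The lower gene was Ap2a1, a subunit of the AP-2 clathrin adaptor (-1.17 ± 0.19, edgeR adjusted p = 0.000357), and Ap2b1 and Dnm2 were at -0.62 ± 0.15 and -0.59 ± 0.18. Of the 5 tested genes of SERCA pumps and their regulators, 0 were called by edgeR or DESeq2 and 1 had an unadjusted p below 0.05, so Pln moved without the measured pump genes passing the test. Camk2d was at 0.86 ± 0.23 and passed 2-fold at 1.05 without +/- replicate 3, Atp2a3 at 0.52 ± 0.27 and Prkaca at 0.11 ± 0.16.

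Tspan6 fell in R111G/+ while 5 of 24 other tetraspanins were called higher and 1 lower, with a median of 0.77 (14 higher and 3 lower in -/-). Cd9 rose (1.45 ± 0.24, edgeR adjusted p = 0.000323), Tspan7 rose (1.41 ± 0.28, adjusted p = 0.00113) and Tspan18 was at 0.98 ± 0.23. The other 3 that rose were Tspan11 (1.26 ± 0.41), Tspan14 (1.07 ± 0.26) and Cd53, a leukocyte gene (1.55 ± 0.40), and Tspan1 was lower (-1.88 ± 0.52). Tspan11 was lost at 0.95 without +/- replicate 1, Tspan14 at 0.85 and 0.96 without +/- replicate 1 or R111G/+ replicate 1, and Tspan18 passed 2-fold at 1.05 to 1.11 without +/- replicate 2 or 3 or R111G/+ replicate 2 or 3. Csrnp1, a relative of Csrnp3, fell (-1.28 ± 0.26, adjusted p = 0.00137), and Csrnp2 was at -0.65 ± 0.20 (both called lower in -/-). Of the partners of Sncaip, Siah2, a ubiquitin ligase, fell (-1.71 ± 0.24, adjusted p = 0.000124), and Siah1a was at -0.45 ± 0.17.

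In the list around Cd109, of relatives, TGF-beta receptor and pathway genes and complement genes, 5 of 13 were called higher and 1 lower in R111G/+ (also 5 and 1 in -/-). By DESeq2, 4 were higher and 1 lower in R111G/+. Tgfbr2, the type II receptor, rose (1.19 ± 0.28, adjusted p = 0.00361), as did Tgfbr3, a co-receptor (1.00 ± 0.26), Smad7, which holds back the pathway (1.11 ± 0.22), and the complement genes C3 (1.25 ± 0.45) and C5ar1 (1.51 ± 0.48), while A2m, a protease inhibitor related to Cd109, fell (-2.55 ± 0.74). These calls rest on few libraries. Tgfbr2 was lost at 0.92 without R111G/+ replicate 1, Smad7 at 0.96 without +/- replicate 1 and Tgfbr3 at 0.80 to 0.98 without +/- replicate 1 or 3 or R111G/+ replicate 1. C3 was lost at 0.91 to 1.30 without +/- replicate 1 or 2 or R111G/+ replicate 3, C5ar1 at 1.19 and 1.33 without +/- replicate 1 or 3 and A2m at -2.04 without +/- replicate 2.

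The 10 genes lie on 10 different chromosomes. Of the 21 protein-coding genes that overlap them or lie next to them, 19 were tested at P28. In R111G/+ against +/- edgeR called 0 higher and 6 lower, beside 6.72% and 28.1% of all genes, and DESeq2 gave the same counts. Of the 19, 14 had an unadjusted p below 0.05, as did 12193 of all 20952 genes tested. The 6 were Spata20 and Mycbpap beside Epn3, Cep85l at Pln, Galnt3 beside Csrnp3 (-2.03 ± 0.43, edgeR adjusted p = 0.00183), Gykl1 beside Sncaip (-2.82 ± 0.34, adjusted p = 4.69e-05) and Col12a1 beside Cd109 (-1.85 ± 0.40, adjusted p = 0.00217). Clu, 14.5 kb from Scara3, was at 0.65 ± 0.24, and Ndufc2, 5.1 kb from Thrsp, at 0.15 ± 0.26. In -/- against +/- edgeR called 4 of the 19 neighbours higher and 5 lower, beside 19.8% and 38.7% of all genes. The 5 lower were also lower in R111G/+, and Col12a1 was at 0.58 ± 0.37 in -/-.

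In the list of 4291 chromatin interactions that the authors called by Hi-C in P7 Sertoli cells without Dmrt1, 4 of the 10 genes had a 10 kb anchor within their body or 10 kb of it, beside 26.9% of 21897 protein-coding genes. Scara3 had 2 interactions from an anchor at chr14:65960001-65970000, which lies before its start and overlaps the start of Clu, to an anchor 120 kb away at Ccdc25 and to 1 at 300.0 kb away that overlaps Scara5, another class A scavenger receptor gene. Epn3 had 1 interaction, to an anchor that overlaps Ankrd40 and Abcc3, and Pln had 1 and Cd109 had 2 to anchors without a protein-coding gene. The list gives no score and no control cells, so it says where interactions were called and not whether they differ with Dmrt1.

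The genes whose levels ran most like each of the 10 over all 30 libraries were named by Pearson's r of log2 CPM among 15097 protein-coding genes with a mean of at least 1 CPM. The libraries share ages, tissues and genotypes, so r mostly follows the differences between groups. For Cldn3 the nearest was Cdkn2b, an inhibitor of the cell cycle (r = 0.852), for Thrsp it was Aifm2 (r = 0.899), for Car7 Crebl2 (r = 0.938) and for Epn3 Trim68 (r = 0.897). For Scara3 it was Jam3, a junctional adhesion molecule (r = 0.832). For Pln it was Rhbdd1 (r = 0.974), for Tspan6 Mterf2 (r = 0.828), for Csrnp3 Samd10 (r = 0.867), for Sncaip Emilin2 (r = 0.963) and for Cd109 Col16a1, a collagen (r = 0.933). The second nearest were Rmdn3, Mrap, Ugt3a2, Phf8, Colgalt1, Rnf166, Extl2, Aldh1a2, Dact3 and Cpt1c, in the same order of the 10 genes, with r from 0.807 for Colgalt1 to 0.961 for Dact3.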

How the data were processed

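Counts of messenger RNA per gene were deposited for 30 libraries in 1 table. Per the authors' methods, reads were trimmed with Trim Galore 0.6.0 and cutadapt 1.18, mapped to GRCm38 with STAR 2.7.2a and counted by strand per GENCODE gene. The counts are whole numbers, not normalized, and 0 columns were left unmapped. The depth of 5043838 to 12792811 counts limits the precision for genes of a few counts.

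The 10 genes, the lists of relatives and markers and the tests were chosen with earlier results of these data known. Each age was fitted alone in R 4.3.3 with edgeR 4.0.16 (filterByExpr, TMM factors, quasi-likelihood F test, no covariate), and calls needed a Benjamini-Hochberg adjusted p under 0.05 over all genes and more than 2-fold. The SE is the size of the log2 fold change divided by the square root of F. With 3 libraries against 3 an exact two-sided permutation p cannot go below 0.1. Named are the 10 genes, up to 3 relatives per list with the smallest adjusted p in P28 R111G/+ against +/-, the nearest protein-coding genes and the 2 most alike genes of each. Man1c1, Morf4l1 and the further relatives called were chosen after their values were seen. For the partners of Sncaip not every result is reported here. DESeq2 1.42.0, other scalings, no filter, a replicate block and leaving out libraries were alternatives. Tested on simulated data with 100 genes changed 3-fold and 100 changed 6-fold, the test recovered 72 and 91 of them in P28 R111G/+ against +/- (20952 genes), 69 and 94 at P7 (14013 genes) and 81 and 92 in P3 -/- against +/- (15837 genes). For the P7 against P3 difference it recovered fewest, 59 and 81 (16648 genes). Unchanged genes were called 11, 17, 4 and 9 times in this order. The changed genes had means above about 1 CPM and rose as often as they fell. Low counts and the many, mostly lower, changes of P28 gonads were thus not simulated.

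Gene positions are those of GENCODE M21, which held 99.5% of the identifiers, and the bases before each start are from RefSeq (GRCm38.p6). The Hi-C list was deposited as anchor positions called with HiC-Pro, cooler and cooltools on replicates of cells without Dmrt1, and holds no counts.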

Additional observations from a re-analysis of the deposited data

Results flagged for a closer look

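The effect of losing Dmrt1 on Scara3 differed between P7 Sertoli cells and P3 gonads, which a test of the difference itself showed: the log2 fold change was -4.31 at P7 and -1.02 at P3, and the difference was -3.28 ± 0.53 (SE, edgeR adjusted p = 0.00275). In all 3 deleted P7 libraries and all 3 P3 -/- libraries Scara3 lay below every control library. The P7 cells were isolated and the P3 gonads whole, and these cannot be told apart from age. With 3 libraries in each group, no test for a single outlying library was made.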

How the results depend on the processing

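Over all alternatives, 516 of 539 values of the 10 genes at P3 and P7 counted as unchanged, 19 lost the threshold, 3 gained it and 1 changed sign. Unchanged values kept their side of the threshold. A change of sign in an uncalled value smaller than its SE was also counted as unchanged. The P7 against P3 difference gave Scara3 alone under each of the 4 alternatives run. With the factors from somatic markers, 0 genes were called in P3 -/- against +/- and 0 in P3 R111G/- against -/-, where Epn3 changed sign to -0.0886. With only the 2 groups compared in the fit, the counts were also 0 and 0. Without the filter on low counts, 2 were called in P3 R111G/+ against -/- (Thrsp joined Scara3). The replicate numbers were not shown to pair the libraries at P28 or P3: deviations of libraries with the same number correlated at -0.394 to 0.355 at P28, -0.0371 to 0.505 at P7 and -0.287 to 0.241 at P3. For libraries with different numbers the ranges were -0.301 to 0.328, -0.428 to 0.147 and -0.287 to 0.248. At P7 the 3 same-number pairs had a median of 0.225, too few pairs to settle whether the numbers pair these libraries. With the replicate number as a block, 0 were called in P3 R111G/- against -/- (Scara3 1.07, edgeR adjusted p = 0.0759), and the block changed no other call of the 10 genes. It took Tgfbr3 at P28 to 0.98. No block was fitted for the P7 against P3 difference.

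Leaving out 1 library at a time gave 1 to 2 called at P7, 0 to 1 in P3 -/- against +/-, 1 to 2 in P3 R111G/+ against -/- and 0 to 1 in P3 R111G/- against -/-. The number of relatives called at P28 in R111G/+ was 18 to 35 over the same settings, and 45 with library totals. Of 837 values of relatives and neighbours, 730 kept their call, 56 lost it, 43 gained it and 8 changed sign, by the same rule for values smaller than their SE. With the factors from somatic markers these were Scara5 at -0.55, Cldn12 at -0.27, Atp2a3 at -0.30, Clu at -0.10, Kctd14 at -0.0612 and Snx2 at -0.15. Slc35f1 ranged from -2.26 to 0.55 over single libraries left out, and was at 0.97 without both libraries that stood apart. The causes of these changes were not tested. Limits are 3 libraries a group, whole gonads of unlike cell mixture at P28, and counts of few reads for Thrsp, Cldn3, Car7 and Pln before P28. Leaving out libraries at P28, the +/+ control for the 10 genes and the joint removal of the libraries that stood apart were chosen after seeing the data.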
